A study of Mus musculus with 6 samples.

Results

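The genes of the histones and of the machinery that makes histone mRNA were followed in C2C12 cells, a mouse myoblast line, under cyclic stretch. The rule that chose them used gene symbols and no measured value. The rule took every canonical histone gene of the H1, H2A, H2B, H3 and H4 families, 8 genes of histone variants and 4 genes of histone mRNA processing, which came to 79 of the 22375 rows of the table. Of these, 67 were replication-dependent histone genes (5 of H1, 18 of H2A, 19 of H2B, 12 of H3 and 13 of H4). H2bc26, counted with H2B, is annotated as a processed pseudogene. The unstretched group (CON) and the group stretched for 4 h at 15% elongation (4H) held 3 libraries each, and both were the same line with no knockdown or other agent named for these libraries. The cells were grown with serum and seeded near confluence on elastic plates coated with poly-lysine. The labels title the 4H libraries 4H1, 4H3 and 4H4, and they are 4H replicates 1, 2 and 3 here. The labels number the replicates as biosamples without saying whether these were separate cultures, so the p-values measure the spread between these libraries, which may be technical.

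Replication-dependent histones are made mainly in S phase to package new DNA. Their mRNAs are unusual in that they end in a short stem-loop, bound by the protein SLBP and cut with the help of the U7 snRNP, in place of a poly(A) tail. Variant histones such as H2A.Z, replacement H3 and H1f0 come from ordinary polyadenylated mRNAs whose making is not confined to S phase. Of these, H1f0 accumulates in cells that leave the cycle. Some replication-dependent genes also make polyadenylated transcripts that read past the stem-loop. The libraries were made from RNA selected for poly(A), so the values below describe what was recovered by that selection and not the full pool of histone mRNA. In bulk RNA, fewer cells with a transcript and less transcript per cell cannot be told apart.

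Values are FPKM, the fragments of a gene scaled to the length of its transcript and to the size of the library, as the authors deposited them. A gene was tested with limma on log2(FPKM + 0.5) where its mean over the 6 libraries was at least 0.5 FPKM, and it was called changed at a Benjamini-Hochberg adjusted p of at most 0.05 over all 11593 genes tested. Fitted differences are 4H minus CON on that log2 scale, which understates the change of genes near 0.5 FPKM. Depth cannot be read from FPKM. The summed FPKM ranged from 395790 to 397260 in CON and from 385146 to 387516 in 4H, and 14125 to 14186 rows were above 0 in CON against 14899 to 14972 in 4H. The median fitted difference of all genes tested was -0.01.

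The 3′ ends of the messages are shown first, because a poly(A)-selected library can hold a histone message only in some forms. In the GENCODE M21 annotation of GRCm38 (mm10), 44 of the 67 replication-dependent genes had a stem-loop in the 3′ UTR of the transcript examined, at a median of 31.5 bases after the stop codon (range 21 to 58). Most of the others had an annotated 3′ UTR of 0, 1 or 2 bases, so a stem-loop could not have been found in them. They are therefore not shown to lack one. All 79 members were found in that annotation by their Ensembl identifier. The 16 bases of the stem-loop are in capitals, with 5 bases on each side, for the 3 genes among those called higher that had one, for 3 tested genes that were not called, and for H2ax, a variant gene that carries one too.
H1f2: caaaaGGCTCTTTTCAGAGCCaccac
H2bc12: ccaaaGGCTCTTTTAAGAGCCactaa
H4c9: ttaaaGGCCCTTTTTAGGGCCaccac
H2bc8: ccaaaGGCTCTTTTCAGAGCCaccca
H2ac18: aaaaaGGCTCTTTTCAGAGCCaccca
H4c18: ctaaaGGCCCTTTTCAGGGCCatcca
H2ax: acaaaGGCCCTTTTAAGGGCCaccac

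The stem-loops of the 44 replication-dependent genes fell into 8 sequences, none of them that of H2ax, that differed in the stem, the loop or both. The form of H1f2, H2bc8 and H2ac18 was shared by 25 genes of the H1, H2A, H2B and H3 families, and no H4 gene had it. The form of H4c18 was found in 7 genes, all of H4, and that of H4c9 in 2, the other being H4c14. The form of H2bc12 was found in 5 genes of H2B and H3. The stem-loop of H1f2 lay at chr13:23739512-23739527 on the plus strand, that of H2bc12 at chr13:22036300-22036315 on the plus strand, that of H4c9 at chr13:22040966-22040981 on the minus strand and that of H2ax at chr9:44335240-44335255 on the plus strand.

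What followed the stem-loop differed between genes. The annotated transcript of H1f2 ran on for 840 bases after it and that of H4c9 for 330 bases, and both carried a poly(A) signal in their last 50 bases. H2bc12 ended 30 bases after its stem-loop with no such signal. H2bc4 had no stem-loop in its annotated transcript, which had 2 exons and a 3′ UTR of 742 bases. A transcript of over 100 bases past the stem-loop was annotated for 22 genes, of which 4 were tested and 2 called higher, and one of at most 100 bases for 22 genes, of which 4 were tested and 1 called higher. Of 5 genes with no stem-loop found and a longer 3′ UTR, 1 was tested and called higher. In the other 18, most of them annotated with almost no 3′ UTR to search, 3 were tested and 0 called. These 3 (H3c10, H3c11 and H4c12) had a 3′ UTR of 0 bases, so whether they have a stem-loop is not known from this annotation. Of all genes tested, 22.6% were called higher, and these groups are too small to be read against that share. The median of the mean levels was 0.145 FPKM for the 22 genes with the longer tail and 0.228 FPKM for the 22 with the shorter. Their median transcript lengths were 1255 and 483.5 bases. Since FPKM is scaled to length, these levels do not show which group was recovered better. Which 3′ end the reads came from was not tested, since the table has 1 value per gene.

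The replication-dependent genes were low in these libraries. Of the 67, 4 were at 0 in all libraries (H2ac1, H2bc1, H2bc27 and H4c6), 43 were above 0 in all 6, and the median of their mean levels was 0.213 FPKM. Only 12 passed the filter, 3 of them with a CON mean under 0.5 FPKM (H3c11, H4c12 and H4c18), so that these 3 passed because of the 4H libraries. Of the 12, 4 were called higher in 4H and 0 lower, against 22.6% of all genes tested called higher and 24.1% called lower. Both thresholds, with a log2 difference of at least 1, were met by 3 of the 4 (H1f2, H2bc4 and H4c9), against 2.61% of all genes tested.

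The gene of the linker histone H1f2, which binds DNA between nucleosomes and helps compact chromatin, had the largest fitted log2 difference of the 24 members tested. H1f2 (chr13:23738808-23740367, 1 exon, Hist1h1c in the older nomenclature) was at 5.17, 5.28 and 5.18 FPKM in the 3 CON libraries against 27.1, 21.8 and 22.8 FPKM in the 3 libraries of 4H. All 4H values lay far above all CON values. The means were 5.21 ± 0.06 and 23.9 ± 2.82 FPKM (SD, n = 3 each), a ratio of 4.59, with a fitted log2 difference of 2.09 (SE 0.08, adjusted p = 5.81e-07 by limma). This ranked H1f2 at 32 among the rises of the 11593 genes tested. Of the 75-base stretches of its transcript, 6.66% also occurred in another gene, the lowest share among the 12 tested genes.

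The other H1 genes were barely detected. H1f1 was at 0 in the 3 CON libraries and at 0.544, 0.601 and 0.269 FPKM in 4H. The remaining members peaked at 0.428 FPKM for H1f5, 0.253 FPKM for H1f4 and 0.235 FPKM for H1f3, and none of these 4 genes reached the filter. Of the summed FPKM of the replication-dependent genes, H1f2 held 23.8% ± 0.34 in CON and 43.1% ± 4.48 in 4H.

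Among the core histones, which form the nucleosome itself, 3 of 11 tested genes were called higher, 2 of H2B and 1 of H4, a share near the 22.6% of all genes tested. H2bc4 (chr13:23684199-23692908) was at 1.50, 2.41 and 2.51 FPKM in CON and at 5.23, 5.49 and 6.71 FPKM in 4H. The groups did not overlap, and the fitted log2 difference was 1.27 (SE 0.17, adjusted p = 0.000436 by limma). Its neighbour H2ac6, an H2A gene 251 bases away on the opposite strand, had at most 0.250 FPKM in any library. Of the stretches of H2bc4, 27.1% were shared, with 14 other genes.

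H2bc12 (chr13:22035870-22036345) was at 0.716, 1.21 and 1.02 FPKM in CON and at 1.68, 1.67 and 1.85 FPKM in 4H. The 4H values were close together and above each CON value, and the fitted log2 difference was 0.60 (SE 0.14, adjusted p = 0.00981 by limma). Its transcript shared 72.6% of its 75-base stretches with other genes, so the value may hold reads of other H2B genes.

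H4c9 (chr13:22040636-22041362), which lies 4291 bases from H2bc12, was at 0.433, 1.68 and 0.609 FPKM in CON and at 3.15, 2.35 and 2.74 FPKM in 4H. The CON libraries were spread widely but none reached the lowest 4H value, and the fitted log2 difference was 1.30 (SE 0.29, adjusted p = 0.00682 by limma). Of its stretches, 22.4% were shared, with 10 other genes.

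**Figure D1:**
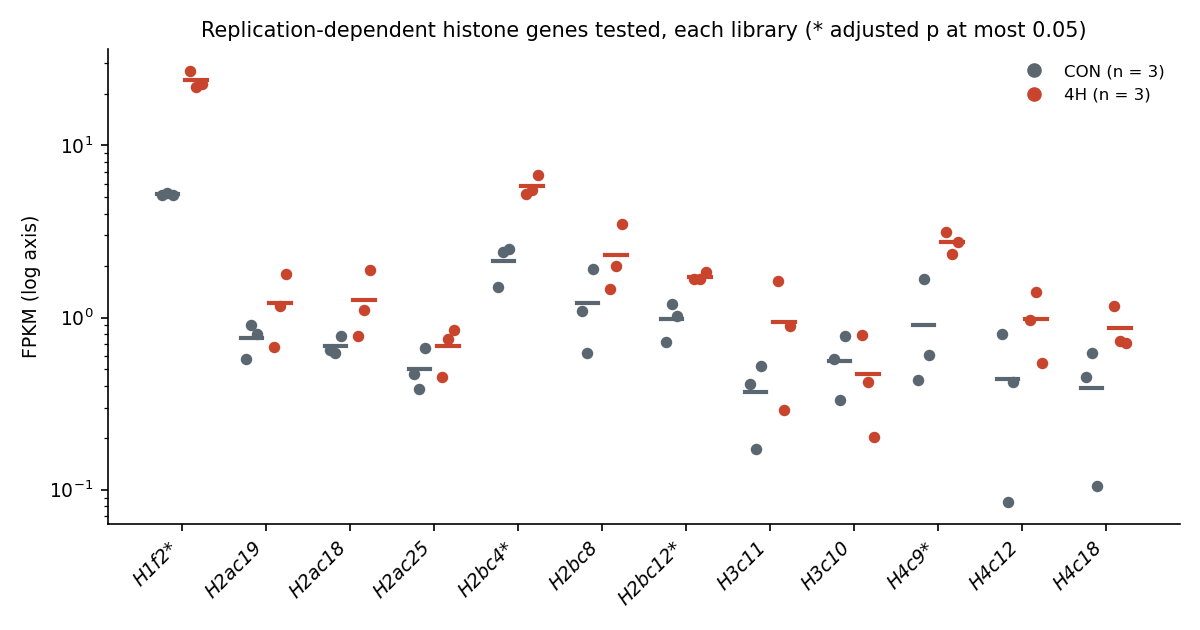
FPKM of the 12 replication-dependent histone genes tested, on a log axis, in each CON library (grey points) and each 4H library (red points), with the group mean as a bar. H1f2 stands highest, with 4H values from 21.8 to 27.1 FPKM, and the genes marked with an asterisk (H1f2, H2bc4, H2bc12, H4c9) are those called changed.

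The other 8 tested replication-dependent genes did not pass the threshold. In H2A, H2ac18 was at 0.648, 0.621 and 0.778 FPKM in CON and 0.779, 1.11 and 1.88 FPKM in 4H, which did not overlap but missed the threshold (fitted log2 difference 0.53, adjusted p = 0.0829 by limma). H2ac19 and H2ac25 had fitted differences of 0.40 and 0.23 (adjusted p = 0.209 and 0.345 by limma). All of the 75-base stretches of H2ac19 and 88.9% of those of H2ac18 occurred in other genes, so the reads of this pair could not be separated with certainty.

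In H2B, H2bc8 was at 1.09, 0.621 and 1.92 FPKM in CON and 1.47, 1.98 and 3.50 FPKM in 4H, with overlapping groups (0.73, adjusted p = 0.102 by limma). In H3, H3c11 had a fitted difference of 0.63 (adjusted p = 0.166 by limma) and H3c10 one of -0.15 (adjusted p = 0.660 by limma). The H3 gene with the next highest mean, H3c14, peaked at 0.623 FPKM and was not tested. In H4, H4c12 had a fitted difference of 0.69 (adjusted p = 0.115 by limma) and H4c18 one of 0.65 (adjusted p = 0.0635 by limma), the latter with groups that did not overlap. The fitted differences of these genes depended on single libraries. H2ac18 and H2ac19 passed the threshold without 4H replicate 1, H2bc8 without CON replicate 3, H3c11 without 4H replicate 2, H4c12 without CON replicate 1 and H4c18 without CON replicate 2. Without 4H replicate 3 the value dropped to 0.28 for H2ac18, 0.16 for H2ac19, 0.13 for H2ac25 and 0.44 for H2bc8. It dropped to 0.29 for H3c11 without 4H replicate 1, to 0.14 for H2ac25, 0.46 for H2bc8 and 0.39 for H4c12 without CON replicate 2, and to 0.39 for H4c18 without CON replicate 3.

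**Figure D2:**
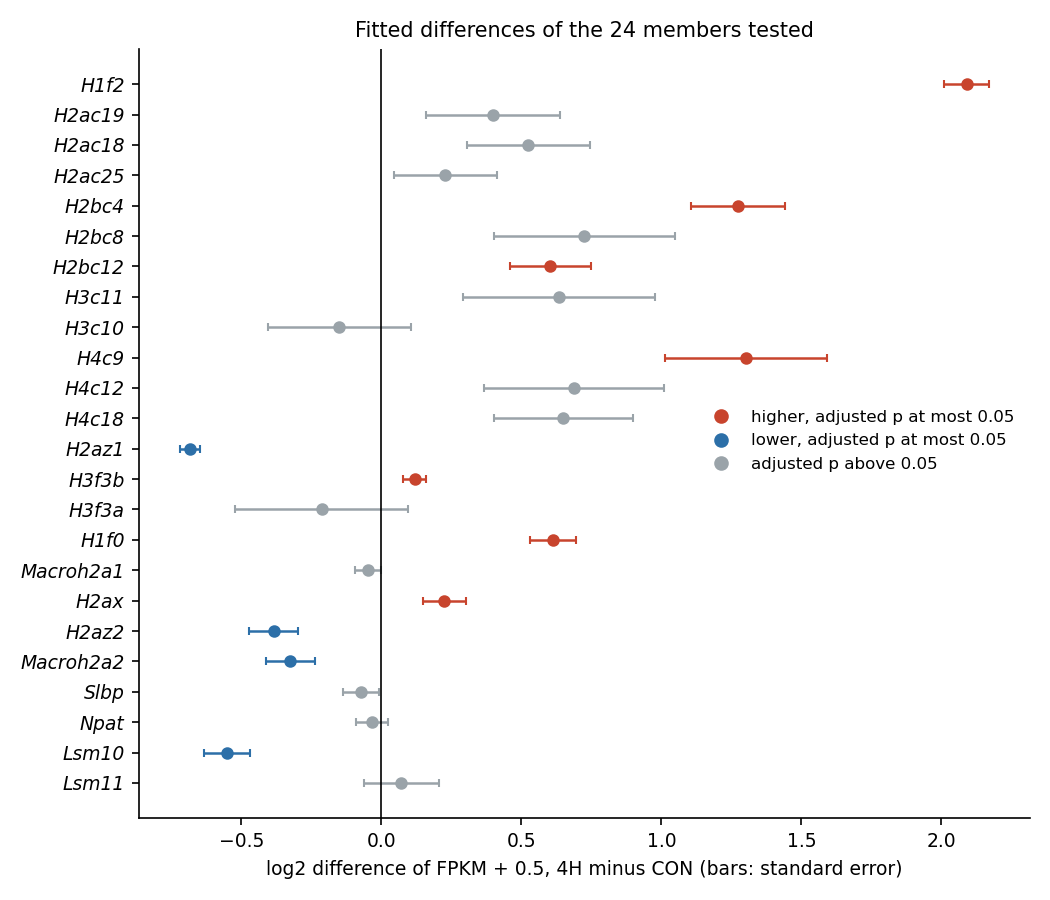
Fitted log2 difference of FPKM + 0.5, 4H minus CON, of the 24 members tested (points) with its standard error (bars), coloured by call. H1f2 at 2.09 lies farthest to the right and H2az1 at -0.69 farthest to the left, and the wide bars belong to low replication-dependent genes and to H3f3a.

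The 55 replication-dependent genes under the filter were read against all other low rows, because low rows as a whole were higher in 4H. Of the 51 such histone genes above 0 in at least 1 library, 41 (80.4%) had the higher mean in 4H, against 71.5% of the 4983 rows of the table under the filter and above 0. In 12 of the 51 (23.5%) every 4H library was above every CON library, against 16.9% of those rows, and in 0 was every CON library above every 4H library, against 3.37%. The summed FPKM of the low histone genes was 1.63 times as high in 4H as in CON, and that of all low rows 1.52 times. The shares of the low histone genes thus lay near those of low rows in general, and the part that the greater number of rows above 0 in 4H had in this was not tested. With no filter, 13 of 63 replication-dependent genes were called higher and 0 lower by limma, against 17.9% and 15.7% of all rows tested in that way.

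Summed over the 67 genes, the level was 21.4, 22.4 and 21.9 FPKM in CON and 56.7, 51.4 and 58.6 FPKM in 4H, a ratio of 2.54. Much of the rise lay in 1 gene, since without H1f2 the ratio was 1.89. Without all 4 called genes it was 1.69, from 12.7 ± 0.85 to 21.3 ± 2.70 FPKM. By family, the sums in CON and 4H were 5.65 ± 0.27 and 25.1 ± 3.04 FPKM for H1, 4.04 ± 0.21 and 6.68 ± 2.12 for H2A, 6.65 ± 0.76 and 13.1 ± 2.78 for H2B, 2.85 ± 0.46 and 4.08 ± 0.55 for H3 and 2.72 ± 0.98 and 6.61 ± 0.98 for H4. The ratios of 1.65 for H2A and 1.43 for H3, where no gene was called, lay near the 1.52 of all low rows. The sets are unlike, since these family sums also hold genes that passed the filter. These sums over chosen genes are descriptions and carry no test.

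**Figure D3:**
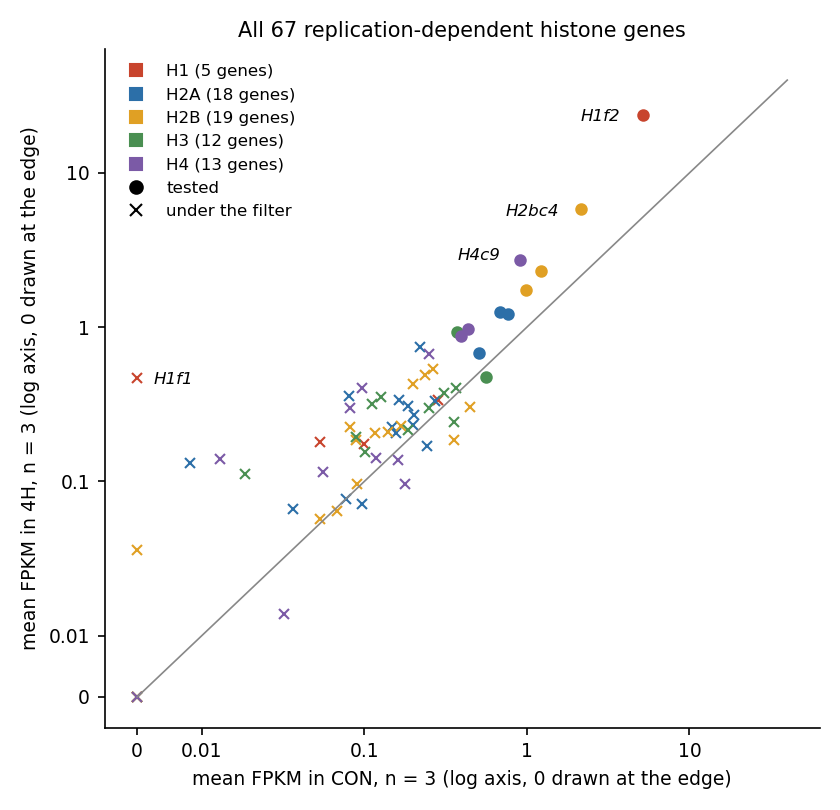
Mean FPKM in 4H against mean FPKM in CON for each of the 67 replication-dependent histone genes, on log axes with 0 drawn at the edge, coloured by family, with circles for the 12 tested and crosses for the rest. Most points lie above the line of equal level (52 of 67), and H1f2, H2bc4 and H4c9 lie above it at the higher levels. Of the genes under the filter and above 0, 41 of 51 (80.4%) lie above it, against 71.5% of all such rows.

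The promoters of the called genes are shown as well, since their families are known for distinct promoter elements. RefSeq promoters of GRCm38.p6 (250 bases before to 50 after the start) were at hand for 68 of the 79 members, and H2ac25, H2ax, H2bc4, H2bc21, H2bc24, H2bc26, H2bc27, H3c1, H3c7, H4c14 and H4c16 were the other 11. The 160 bases before the start are given 5′ to 3′ on the strand of the gene, at chr13:23738647-23738806 (plus) for H1f2, chr13:22035661-22035820 (plus) for H2bc12 and chr13:22041363-22041522 (minus) for H4c9. Capitals mark matches, on either strand, to AAACACA (the H1 box), CCAAT, the octamer ATTTGCAT or TATAA.
H1f2: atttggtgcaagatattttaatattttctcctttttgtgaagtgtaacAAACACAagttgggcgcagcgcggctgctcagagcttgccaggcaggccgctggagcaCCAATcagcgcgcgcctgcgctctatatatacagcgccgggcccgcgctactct
H2bc12: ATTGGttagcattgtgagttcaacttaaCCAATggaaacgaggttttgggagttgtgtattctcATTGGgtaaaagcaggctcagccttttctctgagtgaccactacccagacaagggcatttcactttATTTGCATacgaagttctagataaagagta
H4c9: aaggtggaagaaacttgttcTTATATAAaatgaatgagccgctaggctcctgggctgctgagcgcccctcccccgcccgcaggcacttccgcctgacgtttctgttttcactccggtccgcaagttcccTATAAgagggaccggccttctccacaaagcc

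The promoter of H1f2 held the H1 box 112 bases and CCAAT 54 bases before the start. That of H2bc12 held the octamer 30 bases before it, with CCAAT or its complement ATTGG at 160, 132 and 96 bases. That of H4c9 held TATAA 31 bases before the start, and the capitals farther upstream are overlapping matches on both strands at 140 and 137 bases. Matches to these elements were spread unevenly over the families. They were counted on either strand and anywhere in the promoter, including the bases after the start. The H1 box was in 4 of 5 H1 promoters, the exception being H1f1, and in 7.18% of all 32851 promoters of that length. The octamer was in 7 of 14 H2B and 6 of 17 H2A promoters, in 0 of the H1, H3 and H4 promoters, and in 1.735% of all promoters. CCAAT was in each of the H1, H2A, H2B and H3 promoters and in 3 of 11 H4 promoters, against 37.4% of all. TATAA was in 10 of 11 H4, 15 of 17 H2A, 4 of 5 H1, 11 of 14 H2B and 5 of 10 H3 promoters, against 24.9% of all. The only TATAA match lay after the start in H4c1, H4c8, H2ac7, H2ac12, H2ac15, H2ac18 and H2ac23. In H4c11 and H2ac10 it lay 2 bases before the start. The only CCAAT match of H3c14 and of H3c15 also lay after the start. The counts therefore do not show how many genes have either element at a working position. These matches are shared by genes that were called and by genes at or near 0 FPKM, and binding of a factor was not measured.

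The variant genes moved in both directions. All 8 were tested, of which 3 were called higher and 3 lower, where 22.6% of all genes tested were called higher and 24.1% lower. Their mean levels over the 6 libraries ranged from 4.74 FPKM for Macroh2a2 to 425.1 FPKM for H2az1. H2az1, the main gene of the H2A.Z variant found at promoters, was at 515, 538 and 520 FPKM in CON and at 320, 342 and 315 FPKM in 4H. The groups lay far apart, and the mean fell from 524.2 ± 11.9 to 326.0 ± 14.2 FPKM, with a fitted log2 difference of -0.69 (SE 0.04, adjusted p = 2.63e-06 by limma). The second H2A.Z gene, H2az2, fell from 18.4 ± 2.21 to 13.9 ± 0.89 FPKM (fitted log2 difference -0.39, adjusted p = 0.00712 by limma). Of the summed level of the 2 genes, H2az1 held 96.6% in CON and 95.9% in 4H. Of the stretches of H2az1, 31.6% also occurred in 4 other genes.

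H1f0, the replacement linker histone that accumulates in quiescent and differentiating cells, was at 50.9, 57.5 and 55.8 FPKM in CON and at 93.9, 84.3 and 74.7 FPKM in 4H. The lowest 4H value exceeded the highest CON value, and the fitted log2 difference was 0.61 (SE 0.08, adjusted p = 0.000453 by limma). A further linker histone gene outside the rule, H1f10, was called lower (-0.54, adjusted p = 0.00300 by limma). H1f2 stood at 9.54% ± 0.53 of the level of H1f0 in CON and at 28.4% ± 2.35 in 4H.

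The other variants changed less. Macroh2a2, one of the genes of the macroH2A variant of silent chromatin, fell from 5.33 ± 0.40 to 4.15 ± 0.34 FPKM (fitted log2 difference -0.33, adjusted p = 0.0159 by limma), and the call was lost without CON replicate 1 (-0.29, adjusted p = 0.0579), CON replicate 2 (-0.31, adjusted p = 0.0513) or 4H replicate 1 (-0.28, adjusted p = 0.0503). Macroh2a1 was at 37.6 ± 1.60 and 36.4 ± 1.50 FPKM and was not called (adjusted p = 0.431 by limma). H2ax, whose protein is phosphorylated around DNA breaks, rose from 22.2 ± 1.03 to 26.1 ± 2.90 FPKM (0.22, adjusted p = 0.0426 by limma). That call was lost without any 1 of the CON libraries (adjusted p = 0.0562 to 0.126) or without 4H replicate 3 (0.14, adjusted p = 0.0862). It was also lost with no filter, without the trend of the fit and after quantile normalization (adjusted p = 0.0770, 0.0756 and 0.0601).

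The 2 genes that encode the same replacement H3 protein gave different precision. H3f3b was at 346, 387 and 368 FPKM in CON and at 408, 397 and 389 FPKM in 4H, which did not overlap, and was called higher by a narrow margin (0.12, adjusted p = 0.0497 by limma). The call was lost without any 1 library except CON replicate 2, with an adjusted p of 0.132 without CON replicate 1, 0.101 without CON replicate 3, and 0.128, 0.104 and 0.0643 without 4H replicates 1, 2 and 3. The fitted difference fell to 0.076 without CON replicate 1. The call was also lost with no filter and without the trend of the fit (adjusted p = 0.0947 and 0.126). H3f3a was at 144, 80.5 and 77.2 FPKM in CON and 70.7, 131 and 62.1 FPKM in 4H, so that 1 library of each group stood far above the rest, and it was not called (-0.21, adjusted p = 0.605 by limma). Its transcript shared 75-base stretches with 27 other genes.

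**Figure D4:**
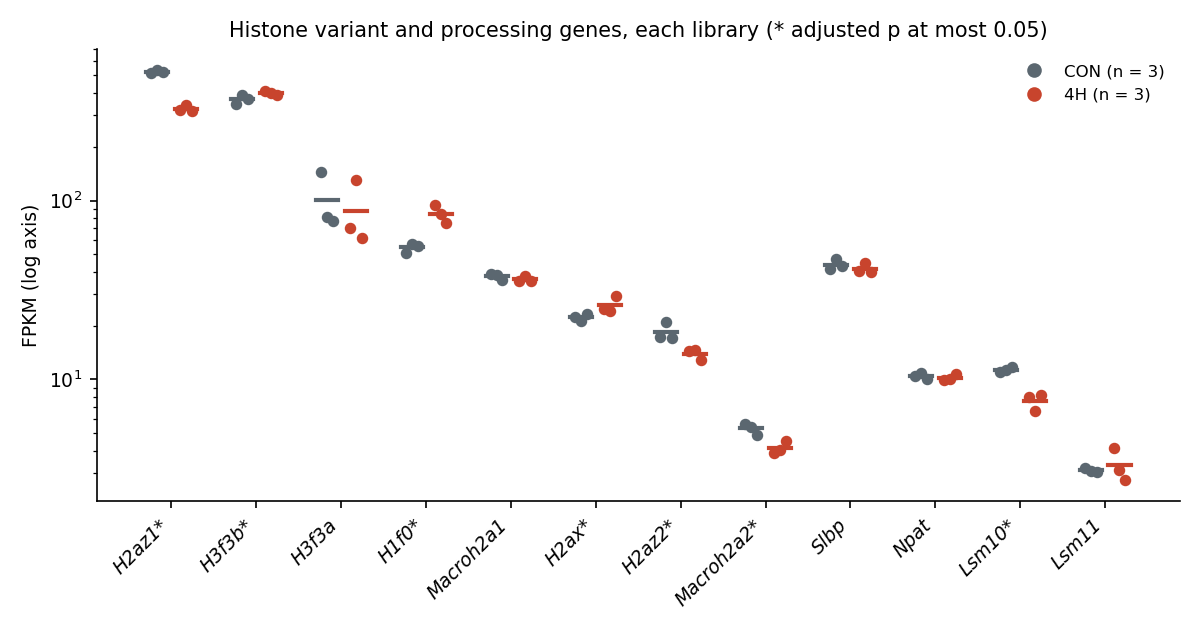
FPKM of the 8 histone variant genes and the 4 histone processing genes, on a log axis, in each CON library (grey points) and each 4H library (red points), with the group mean as a bar and an asterisk for each called gene. H2az1 drops from between 515 and 538 FPKM to between 315 and 342 FPKM, H1f0 rises, and Slbp and Npat overlap between the groups.

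Of the 4 processing genes, 1 was called lower and 0 higher, against 24.1% and 22.6% of all genes tested. Lsm10, a protein of the U7 snRNP that is specific to histone mRNA, was at 11.0, 11.3 and 11.7 FPKM in CON and at 7.97, 6.64 and 8.20 FPKM in 4H. The groups did not overlap, and the fitted log2 difference was -0.55 (SE 0.08, adjusted p = 0.000891 by limma). The other 3 were not called. Lsm11, its partner in the same particle, was at 3.11 ± 0.10 and 3.34 ± 0.74 FPKM (adjusted p = 0.694 by limma). Slbp, the stem-loop binding protein, was at 43.8 ± 2.93 and 41.6 ± 2.96 FPKM (adjusted p = 0.379 by limma). Npat, the coactivator of histone gene transcription, was at 10.5 ± 0.44 and 10.2 ± 0.42 FPKM (adjusted p = 0.663 by limma).

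The wider pathway was described with lists of genes. Of 41 tested genes of histone mRNA processing and transcription, the 4 processing genes included, 3 were called higher and 13 lower (against 22.6% of all genes tested called higher and 24.1% called lower), with a median fitted difference of -0.05. Among the called genes, the largest falls were those of Snrpg, a core protein of the spliceosomal and U7 particles (-0.56), and of Lsm10, and the largest rises those of Ccne1, the cyclin E that acts on Npat (0.27), and Cstf3, a cleavage factor (0.23). Of 44 tested histone chaperones and importers, 2 were called higher and 25 lower (22.6% and 24.1% of all genes tested), with a median of -0.17. Ruvbl2, an ATPase of the complexes that deposit H2A.Z, fell by 0.56 on the log2 scale and Anp32b, an acidic chaperone, fell by 0.54, while Nap1l4, an H2A and H2B chaperone, rose by 0.26 and Atrx, of a complex that deposits replacement H3, by 0.17. All these medians are to be read beside the median of -0.01 over all genes tested.

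Of 38 tested S phase genes, 5 were called higher and 17 lower (22.6% and 24.1% of all genes tested), with a median of -0.12. E2f8, a repressor of the E2F family, rose by 0.62 and Rrm2, a subunit of ribonucleotide reductase, by 0.54, while Ung, which removes uracil from DNA, fell by 0.62 and Cdt1, which licenses replication origins, fell by 0.57. Histone genes outside the rule were few: of 3 tested, H2aj was higher (0.45), and the linker histone gene H1f10 and Cenpa (-0.22), the centromeric H3, were lower. A list of 19 RNAs without poly(A) tails, meant to measure what slipped through the selection, had 1 row in the table. This row was Lars2 (15.0 and 14.7 FPKM, not called), which is itself a protein-coding gene with a polyadenylated mRNA, so that such carry-over could not be compared between the groups.

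**Figure D5:**
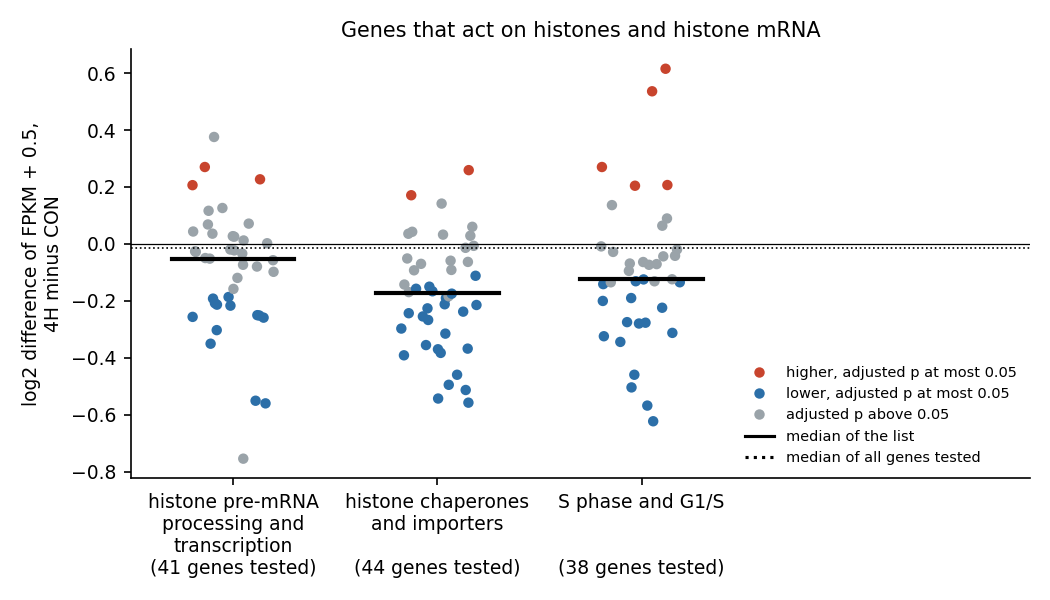
Fitted log2 differences, 4H minus CON, of the tested genes of 3 lists (points, coloured by call), with the median of each list (bar) and of all genes tested (dotted line). More genes lie below 0 than above it among the chaperones and importers, whose median is -0.17.

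Markers of the cells were compared beside these results. Of the 8 myoblast markers tested, 7 were called higher (Myod1 1.74, Msc 1.34, Chrna1 0.71, Cdh15 0.68, Des 0.31, Cdh2 0.29 and Vcam1 0.23) and Myf5 lower (-0.67), where 22.6% of all genes tested were called higher and 24.1% lower. Their summed level was 175.2 to 176.4 FPKM in CON and 228.4 to 236.6 FPKM in 4H. Pax7, the remaining one, was under the filter at 0.452 ± 0.13 and 0.429 ± 0.10 FPKM. Markers of differentiated myocytes summed to 1.16 to 1.57 FPKM in CON and 2.09 to 3.30 FPKM in 4H. Of these, Mymk was called higher (0.57), Mef2c was not (0.35), and Actc1, Myh8 and Mymx were at 0 in all libraries. Myog, the myogenin gene that marks the start of differentiation, was under the filter and lower in 4H, at 0.281, 0.136 and 0.235 FPKM in CON and at 0.079, 0 and 0 FPKM in 4H. Of the other 4 members, all under the filter, Tnnt3 (at most 0.143 FPKM in CON and at least 0.293 FPKM in 4H) and Tnni1 (at most 0.045 and at least 0.257 FPKM) were higher in every 4H library, while Myh3 and Ckm had the lower mean in 4H (0.076 and 0.063 FPKM for Myh3, 0.014 and 0 for Ckm). Fibroblast markers summed to 10.3 to 11.4 and 12.6 to 14.1 FPKM, with Pdgfra called higher (0.62), Dcn (0.42) and Col1a1 (-0.05) not called, and Tcf21 at 0. Among macrophage and endothelial markers only Cd68, also a lysosomal protein, was tested, and it was higher (1.07), while Ptprc and Adgre1 were at 0. The adipocyte markers summed to 0 to 0.111 FPKM in CON and 0.311 to 0.707 FPKM in 4H, mostly Fabp4 (at most 0.569 FPKM), with Cidec and Plin1 at 0. The part of these differences in the histone results was not tested.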

How the data were processed

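RNA-seq of 3 CON and 3 4H libraries of C2C12 cells was used, grouped by the labels. The libraries were poly(A)-selected, marked for strand with dUTP and read from both ends. What the authors deposited is 1 table of FPKM per gene. The submitters' processing notes name the build mm10, and in the sources used here the aligner, the counting tool, the use of strand in counting and the treatment of reads with several matches are not given. Such reads matter for histone genes, whose coding sequences are alike. The authors' own comparisons were not used. Rabbit diaphragm data were not analysed here.

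FPKM is not a count, so no count model was fitted. limma 3.58.1 in R 4.3.3 (two-sided, trend on mean level, no replicate block) was run on log2(FPKM + 0.5) for 11593 rows with a mean of at least 0.5 FPKM, with Benjamini-Hochberg adjustment over all of them. The script was tested on simulated data. With 3 libraries a group, an exact permutation test cannot go below p = 0.1, so single values were not tested that way. The alternatives were other pseudocounts, filters, scalings, a fit without the trend, a replicate block and leaving out each library.

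Every variant, processing and H1 gene was named, with each called replication-dependent gene and the 3 genes of highest mean in each core family. Of each further list, the 2 largest rises and the 2 largest falls among called genes were named. For the marker and non-polyadenylated lists, every gene above 0.5 FPKM was. The members and lists were chosen with earlier results of these data known. Stem-loops were found in the transcripts of GENCODE M21 and promoters taken from RefSeq (GRCm38.p6). Motifs were searched by exact letters on both strands. Shared sequence was the percent of 75-base stretches of a transcript found in another gene. Python 3.11.15, pandas 2.3.3 and matplotlib were used for tables and figures.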

Additional observations from a re-analysis of the deposited data

How the results depend on the processing

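Of 364 values of the 24 tested members under 16 alternatives, 335 kept their direction and side of the threshold. H1f2, H2bc4, H4c9, H2bc12, H2az1, H2az2, H1f0 and Lsm10 did so in every alternative in which they could be fitted. The number of replication-dependent genes called higher was 4, and was 13 with no filter (63 tested), 10 after rescaling to TPM (37 tested, since the same minimum then lies lower on the FPKM scale, and 25.2% of all genes were called higher there) and 1 when a mean of 5 FPKM was required, which left 1 gene to test. With 1 library left out it was 4 to 6. No alternative called one of them lower. The number of variant genes called higher was 3, and was 1 with no filter, 1 without the trend, 2 after quantile normalization and 1 to 2 with 1 library left out, H1f0 being called in each. Directions turned for 4 uncalled genes: H3c10 without 4H replicate 3 (0.061, with the range over left-out libraries starting at -0.38), H3f3a without CON replicate 1 (0.075, from -0.54), Npat after rescaling to TPM (0.00066) and Lsm11 without 4H replicate 1 (-0.079, up to 0.19). The cause was not tested. With the replicate block, 5 replication-dependent genes were called higher, H2bc8 being added (adjusted p = 0.0206 by limma), and H3f3b was lost (adjusted p = 0.0790). Same-numbered libraries deviated from their group means with correlations of 0.02, -0.09 and -0.13. The largest value of any pair was 0.18, for CON replicate 3 and 4H replicate 2, whose titles both end in 3. With 3 libraries a group the deviations within a group depend on each other, so these values cannot show whether libraries were paired. The FPKM scale gives no depth, so the counting error of the low histone genes is unknown.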
